A study of Homo sapiens with 10 samples.

Results

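The baseline expression programme of U-2 OS, a line established from a human osteosarcoma (a bone tumor), was described by comparing its mock-transfected library with those of 2 other cancer-derived lines, SK-N-SH (neuroblastoma) and K562 (chronic myelogenous leukaemia). The 3 mock libraries are 3 of the 10 samples in the series, and each line has 1 of them. Mock cells received the transfection vehicle (Lipofectamine LTX, PLUS reagent and OptiMEM) without a plasmid, so none of these values reflects PcTF, the synthetic activator that the study built from a polycomb chromodomain. U-2 OS was grown in McCoy's 5A medium, SK-N-SH in EMEM and K562, which grows in suspension, in IMDM. RNA was taken at 96 h from both adherent lines and at 48 h from K562. Line, medium, mode of growth and time therefore cannot be told apart. Libraries of PcTF-transfected cells of each line, taken at the same times, and a U2OS-dTF library were used as further comparisons. U2OS-dTF is a stable U-2 OS line with a transgene for a truncated activator. By title and treatment protocol it received 1 µg/mL doxycycline for 96 h. Members were all genes of the 3 gene tables, joined by symbol: of 23245 genes, 13806 were at 1 FPKM (fragments per kilobase of transcript and per 1e+06 mapped reads) or more in at least 1 mock library and entered the comparison. For each of these, the log2(FPKM + 0.1) of U-2 OS was set against the mean of both other lines and against each line, and every difference was centred on the median of the 8145 genes at 1 FPKM or more in all 3 libraries. Differences are on this log2 scale throughout. Where 3 levels follow a gene, they are those of the mock libraries in a fixed order: U-2 OS, then SK-N-SH, then K562.

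Osteosarcoma cells arise from the mesenchymal lineage that makes bone. Osteoblasts of this lineage are specified by the transcription factors RUNX2 and SP7 and lay down a collagen-rich matrix that is mineralized with alkaline phosphatase (ALPL), osteocalcin (BGLAP) and bone sialoprotein (IBSP). HOX genes record a cell's position along the body and limb axes, and polycomb complexes keep them silent where they are not used. Neuroblastoma cells derive from the sympathetic neuron lineage, and SK-N-SH cultures are known to hold adherent cells of a mesenchymal type as well as neuron-like cells. K562 cells resemble erythroid precursors.

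Depth was similar in the 3 mock libraries, estimated (in units of 1e+06 reads) at 4.75 for U-2 OS, 5.14 for SK-N-SH and 4.63 for K562. A single read on a transcript of 2000 bp then corresponds to 0.117, 0.108 and 0.120 FPKM. A value of 0 is given as listed, since genes that every cell uses were also at 0 in places (DAXX, a histone chaperone, in both adherent lines). U-2 OS had 11417 genes at 1 FPKM or more, SK-N-SH had 11279 and K562 had 10187. With 1 library per line there is no replicate error, so no test was made, and a gene was called at a difference of 2-fold or more. The authors normalized each line's table separately, which applies to every level set across lines here. Differences from K562 moved with transcript length: their median went from -1.16 in the shortest of 5 length classes (150 to 1754 bp) to 1.33 in the longest (5876 to 109224 bp), whereas the median difference from SK-N-SH stayed between -0.06 and 0.08. The part of transcript length in single results was not tested beyond the adjusted values given below. In such bulk samples, fewer cells of a type and less RNA per cell cannot be told apart.

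The labelled cell types were checked against defining markers. All 7 erythroid and leukaemia markers were at 1 FPKM or more in K562, where they summed to 4615 FPKM, while the U-2 OS sum was 1.61 FPKM and the SK-N-SH sum 0.112 FPKM. GATA1, KLF1, HBG1 and ALAS2 were listed at 0 in U-2 OS. Neuroblastoma markers summed to 209 FPKM in SK-N-SH, with 6 of 7 at 1 FPKM or more, and to 2.76 FPKM in U-2 OS, near the 2.25 FPKM of K562. U-2 OS carried little of the osteoblast set. SP7 was at 0.148 FPKM, ALPL at 0.194 FPKM and BGLAP at 0.827 FPKM, and IBSP was listed at 0 in all 3 libraries. The 7 fibroblast and mesenchyme markers summed to 506 FPKM in U-2 OS, with 1937 FPKM in SK-N-SH and 1.16 FPKM in K562, the highest of the 3 in SK-N-SH. TWIST1 and COL1A2 were listed at 0 in U-2 OS.

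U-2 OS was closer to SK-N-SH than to K562. Across the genes that entered, Spearman's rho was 0.72 with SK-N-SH and 0.48 with K562, as a description across genes of libraries of similar depth. Relative to the mean of both lines, 4220 genes (30.6%) were 2-fold or more higher in U-2 OS and 3232 (23.4%) were lower. A mean of 2 unlike lines can hide a gene that is shared with 1 of them, and 284 of the higher genes were 2-fold or more below 1 of the lines. The stricter requirement of a 2-fold difference from each line left 1867 genes (13.5%) above both and 1111 (8.05%) below both. Another 2758 genes were above K562 and within 2-fold of SK-N-SH, whereas only 616 were above SK-N-SH and within 2-fold of K562. U-2 OS alone reached 1 FPKM for 1016 genes.

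**Figure D1:**
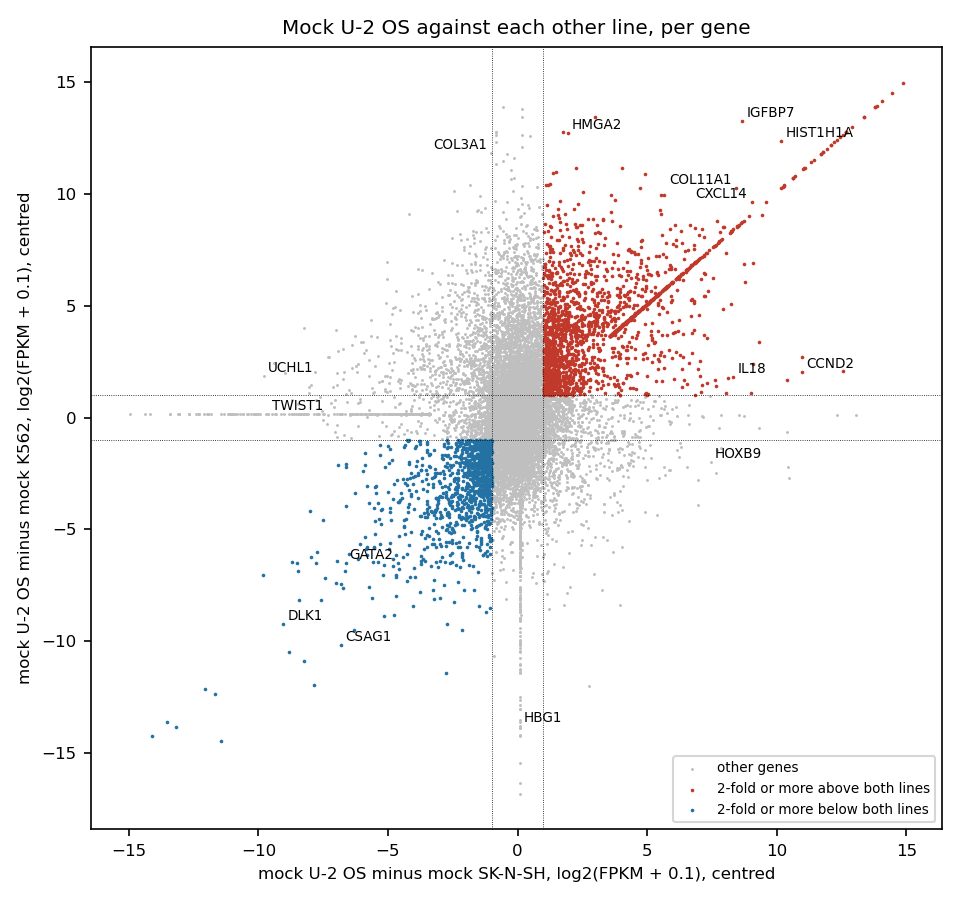
Each point is 1 of the 13806 genes, placed by its centred log2(FPKM + 0.1) difference between mock U-2 OS and mock SK-N-SH (horizontal) and between mock U-2 OS and mock K562 (vertical), and dotted lines mark 2-fold. The 1867 genes above both lines (red) and the 1111 below both (blue) fill opposite corners, and the straight arms are genes listed at 0 in 1 or more libraries.

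Among the genes farthest above both lines were secreted growth factors, their binding proteins and matrix proteins. By the rule fixed for naming genes, all 15 of the highest and 9 of the 15 lowest were microRNA or small nucleolar RNA symbols. All 15 of the former were listed at 0 in both other mock libraries, 11 of them also in the PcTF-transfected U-2 OS library, and 14 in the U2OS-dTF library (a stable U-2 OS line with a doxycycline-induced truncated activator). Such short genes take a very large FPKM from few reads, so the rule was repeated without small RNA symbols, a choice made after the values were seen. IGFBP7, a secreted binding protein of the insulin-like growth factor family (hg19 chr4:57845109-58071465), was at 858 FPKM in U-2 OS, with 2.13 FPKM in SK-N-SH and 0 in K562. The difference from SK-N-SH was 8.68. HIST1H1A, a linker histone with close relatives among the other histone genes, was at 470 FPKM in U-2 OS, with 0.333 FPKM in SK-N-SH and 0 in K562, a difference of 10.17 from SK-N-SH. CXCL14, a chemokine (chr5:134906371-134914969), was at 156, 0.217 and 0.121 FPKM. OSBPL10, an oxysterol-binding protein (chr3:31702317-32033228), was at 98.8, 0.0504 and 0.112 FPKM. Neither gene reached 1 FPKM outside U-2 OS, and both stood 9.03 above the nearer line on the log2 scale. COL11A1, a minor fibrillar collagen of cartilage (chr1:103342023-103574052), was at 108 FPKM in U-2 OS, with 0.228 FPKM in SK-N-SH and 0 in K562.

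Another 8 of the 15 genes were listed at 0 in both other mock lines. The highest was PABPC4L, a poly(A)-binding protein relative, at 116 FPKM in U-2 OS. BMP5 and BMP4, ligands of the bone morphogenetic protein family, were at 38.2 and 27.9 FPKM, and the serine protease KLK6 was at 33.1 FPKM. The dopamine receptor DRD1 was at 28.8 FPKM, the uncharacterized LOC100506433 at 27.3 FPKM and the keratin KRT17 at 22.3 FPKM. The remaining 2 genes were SULF1, a heparan sulfate sulfatase, at 32.1, 0.0360 and 0 FPKM, and PARM1 at 31.9, 0.0397 and 0 FPKM. All 15 were also 2-fold or more above both other lines among the 3 PcTF-transfected libraries, which share no sample with the mock set, and 13 of 15 were at 1 FPKM or more in the U2OS-dTF library. DRD1, at 0.109 FPKM, and SULF1, listed at 0, were the exceptions in that line.

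Promoter sequence was examined for letters bound by factors of the mesenchymal lineage: RUNX (TGTGGT), AP-1 (TGANTCA) and TEAD (GGAATG), on either strand, in the 250 bases before each start. Of the 15 genes, 10 had a promoter in the RefSeq table (GRCh38.p14, a later build than the hg19 of the expression files, with no coordinates converted), and 3 held a match. Their promoters are shown because these genes are among those farthest above both other lines. Capitals mark the matched letters. The CXCL14 promoter (chr5:135578992-135579241, minus strand) held RUNX letters in reverse 112 bases before the start and AP-1 letters 92 bases before it. The OSBPL10 promoter (chr3:31981263-31981512, minus strand) held AP-1 letters 49 bases before the start, and promoter 2 of the 3 listed for BMP4 (chr14:53954489-53954738, minus strand) held RUNX letters 41 bases before the start.
CXCL14: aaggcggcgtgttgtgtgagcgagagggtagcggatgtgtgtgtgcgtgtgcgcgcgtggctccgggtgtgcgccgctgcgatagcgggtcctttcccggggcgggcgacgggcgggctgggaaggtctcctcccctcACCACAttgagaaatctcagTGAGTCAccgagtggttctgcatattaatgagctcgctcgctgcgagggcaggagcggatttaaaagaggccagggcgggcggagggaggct
OSBPL10: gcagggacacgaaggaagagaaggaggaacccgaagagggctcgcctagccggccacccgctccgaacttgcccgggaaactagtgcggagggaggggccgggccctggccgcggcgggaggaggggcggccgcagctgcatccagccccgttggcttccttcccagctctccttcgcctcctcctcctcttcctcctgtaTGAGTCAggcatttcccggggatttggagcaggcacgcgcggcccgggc
BMP4: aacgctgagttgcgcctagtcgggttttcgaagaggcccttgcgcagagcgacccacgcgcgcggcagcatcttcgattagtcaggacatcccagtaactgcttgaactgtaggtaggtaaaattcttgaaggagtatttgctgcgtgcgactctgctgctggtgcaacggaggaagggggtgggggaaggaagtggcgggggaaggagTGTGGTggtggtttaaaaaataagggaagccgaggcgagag

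These letters are common in promoters. Of the genes farthest below both lines, named by the same rule and described further down, 12 had a promoter and 4 held a match. For the genes farthest above, 3 of 10 did. The low genes with a match were HIST1H1D, HSPA4L, SCG3 and PLTP, each with TEAD letters, which none of the 3 promoters shown held. A match was therefore not particular to the genes farthest above. Among the 1266 genes above both lines with a promoter in the table, 13.0% held RUNX letters, 8.85% held AP-1 letters and 15.6% held TEAD letters. Among the 874 genes below both lines the shares were 11.3%, 5.26% and 13.3%, and among the 10534 genes that entered with a promoter they were 11.3%, 6.18% and 13.1%. Over all 35093 promoters in the table, counted singly, 11% held RUNX, 6.57% AP-1 and 11.9% TEAD letters. The GATA letters AGATAA were held by 10.7% of genes above both lines, 5.49% of genes below both, 7.72% of all genes that entered and 9.17% of all promoters. E-box letters (CANNTG) were in 64.4%, 62.1%, 61.5% and 61.8%. Promoters of genes above both lines were slightly poorer in G and C (median 62.0%) than those of genes below both (64.8%), and the part of base composition in these shares was not tested.

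Genes low in U-2 OS but present in both other lines were of several kinds. DLK1, an imprinted membrane protein related to Notch ligands (chr14:101193202-101201467), was listed at 0 in U-2 OS, with 56.3 FPKM in SK-N-SH and 67.2 FPKM in K562. GATA2, a transcription factor of blood and neural progenitors, was at 0.0671, 17.6 and 16.8 FPKM. SCG3, a protein of secretory granules, was at 0.335, 42.3 and 32.7 FPKM. The remainder included the histone genes HIST1H2AL and HIST1H1D, the chaperone HSPA4L and the cancer-testis gene CSAG1, all listed at 0 in U-2 OS. CSAG1 was at 11.8 FPKM in SK-N-SH and 128 FPKM in K562. ICA1, an islet autoantigen, was at 1.07, 73.8 and 52.8 FPKM. ICA1 was the nearest of the 15 genes to the other lines, with differences of -5.89 and -5.34. In the U2OS-dTF library 14 of the 15 were below 1 FPKM, and the exception was HIST1H1D, at 8.12 FPKM.

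Genes were then grouped into 31 lists by function, 30 of which are described. The median difference from the mean of both lines was 0.15 over all genes that entered, and it was 1 or more, or -1 or less, for 18 lists. A list median includes genes listed at 0, whose difference depends on the added 0.1 FPKM, and with 1 FPKM added 11 lists were past this size. Entry took 1 FPKM in any 1 mock library, so genes that entered through U-2 OS alone raise their list's median. Of all genes that entered, 30.6% were 2-fold or more above the mean of both lines and 23.4% below it. Above each line were 13.5% and below each 8.05%. These shares stand beside the counts of every list below. The 12 reference genes had a median of -0.73. CHMP2A was at 25.6, 110 and 114 FPKM, and GAPDH was at 1503, 599 and 428 FPKM, so these genes were not level across the lines.

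**Figure D2:**
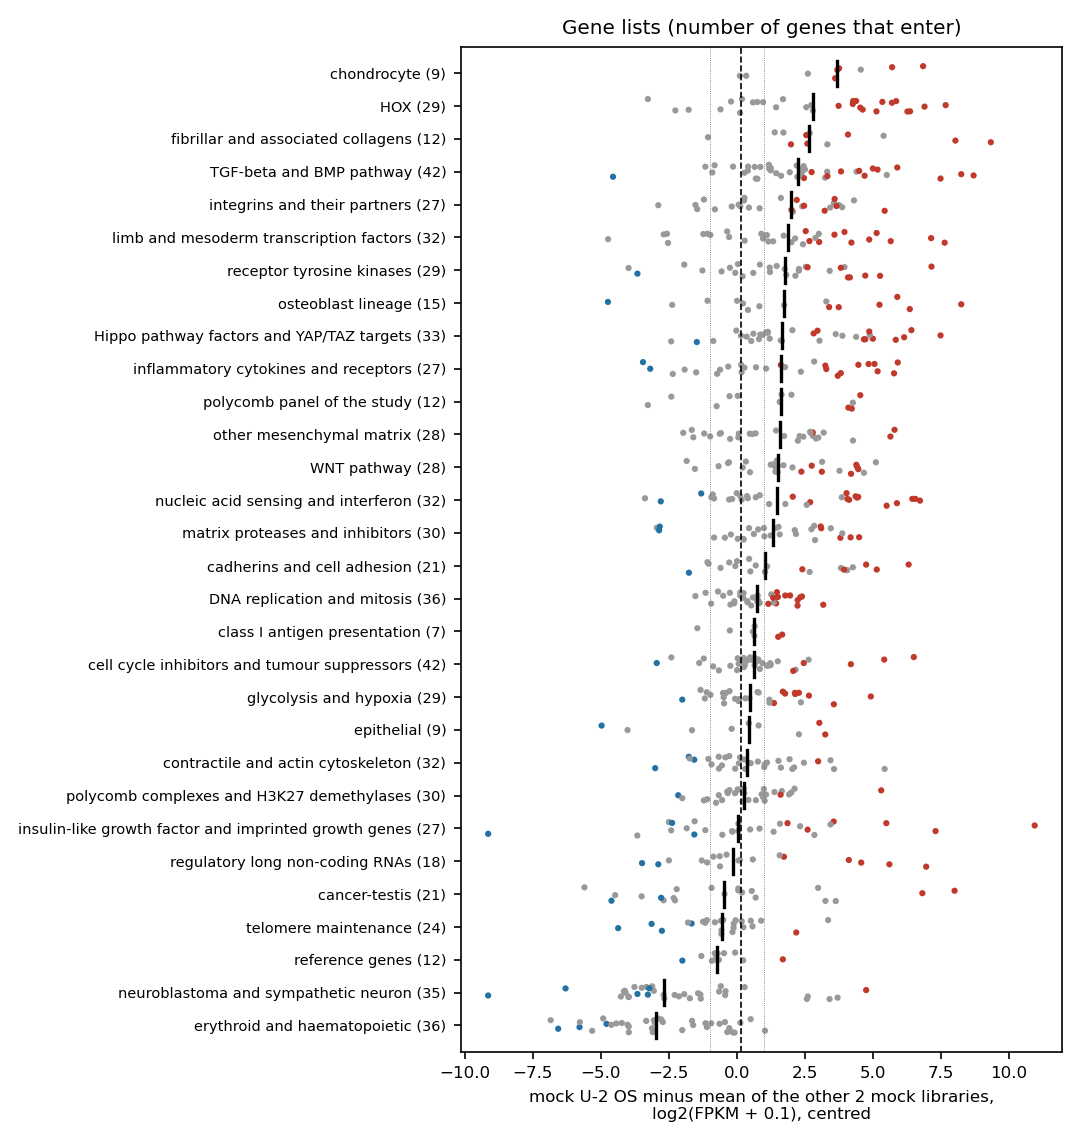
Each point is a gene of 1 of 30 lists, placed by its centred log2(FPKM + 0.1) difference between mock U-2 OS and the mean of mock SK-N-SH and mock K562, with genes 2-fold or more above both lines in red and below both in blue. Black bars are list medians and the dashed line is the median of all genes that entered (0.15), and the lists run from chondrocyte genes (3.69) to erythroid and haematopoietic genes (-2.96).

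HOX genes set U-2 OS apart from both other lines. Of 29 HOX genes that entered, 19 were 2-fold or more above the mean of both lines and 3 were below it, with a median difference of 2.79 (1.20 with 1 FPKM added). Against each line separately, 14 were above both and none below both, where 13.5% and 8.05% of all genes were. SK-N-SH had 5 HOX genes at 1 FPKM or more, K562 had 11 and U-2 OS had 23. Genes that entered through U-2 OS alone, as those of the HOXA cluster did, raise the counts above both lines and the median by the rule of entry. All 11 HOXA genes had a level above 0 in U-2 OS, and the cluster was listed at 0 throughout in SK-N-SH and K562. HOXA13, the most posterior gene of the cluster, which patterns the distal limb, was the highest at 18.7 FPKM. HOXA10 was at 10.9 FPKM, HOXA11 at 4.68 FPKM and HOXA9 at 3.64 FPKM, while HOXA3, the lowest, was at 0.201 FPKM. HOXA9 to HOXA13 were each at a higher level than every other gene of the cluster.

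The other clusters were divided between lines. HOXB genes were shared with K562 and at 0.138 FPKM or less in SK-N-SH: HOXB9 was at 16.4 FPKM in U-2 OS, with 0 in SK-N-SH and 72.8 FPKM in K562. HOXB13 alone was listed at 0 in both other lines, and was at 1.66 FPKM in U-2 OS. HOXB4, a gene of the polycomb panel on which the study tested PcTF, was listed at 0 in both adherent lines and was at 11 FPKM in K562. In the HOXC cluster, HOXC6 was at 3.63, 3.52 and 3.76 FPKM, the most even levels of any HOX gene above 0 in all 3 libraries. Posterior HOXC genes were those of U-2 OS, with HOXC10 at 7.00 FPKM and HOXC11 at 1.67 FPKM against 0 in both other lines. In the HOXD cluster, HOXD8 was highest in SK-N-SH (19.5 FPKM) and was at 6.56 FPKM in U-2 OS. HOXD11 was at 7.48 FPKM in U-2 OS and listed at 0 elsewhere, and HOXD10 was at 9.72, 0.240 and 0 FPKM. HOXD3, HOXD4 and HOXD13 were listed at 0 in U-2 OS. Long non-coding RNAs of these clusters followed the same division, with HOTAIR, a transcript of the HOXC cluster, at 11.3 FPKM and HOTTIP, which lies beside HOXA13, at 1.5 FPKM in U-2 OS, both listed at 0 in the other lines. Whether the reads were counted by strand is not given in the sources used here, so antisense transcripts and their neighbors cannot be told apart.

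**Figure D3:**
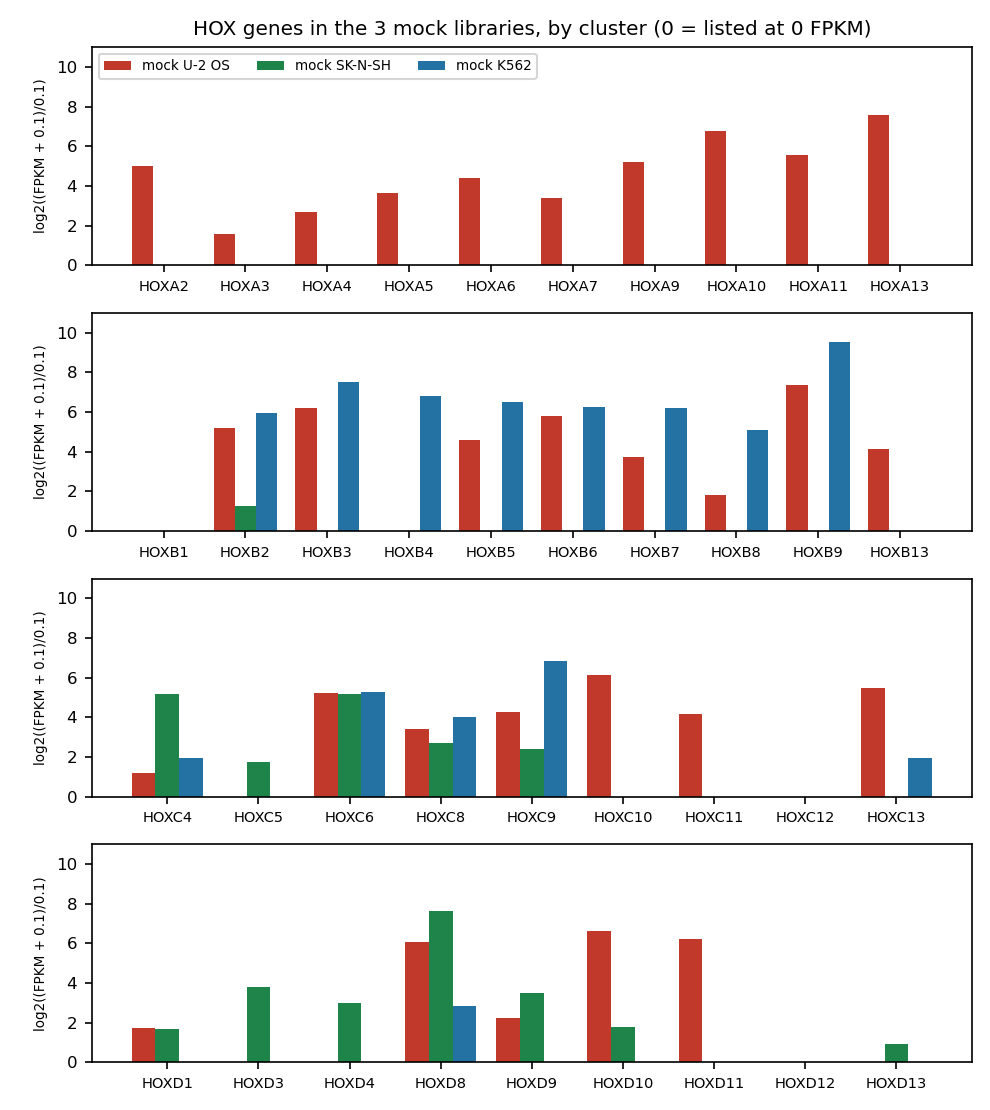
Bars give the level of HOX genes (10 of the 11 in the HOXA cluster) in mock U-2 OS (red), mock SK-N-SH (green) and mock K562 (blue) as log2((FPKM + 0.1)/0.1), so that 0 is a gene listed at 0 FPKM, with 1 panel per cluster in order from anterior to posterior. The HOXA panel holds U-2 OS bars alone, the HOXB panel is shared with K562, and HOXC10, HOXC11 and HOXD11 have a U-2 OS bar alone.

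Transcription factors of limb and mesoderm showed the same division. Of 32 that entered, 20 were 2-fold or more above the mean of both lines and 6 below, with a median of 1.86, but against SK-N-SH alone the median was -0.16. TCF21, a factor of early mesoderm, was at 12.9 FPKM and LHX2, a homeobox factor of the limb bud, at 4.53 FPKM in U-2 OS, and both were listed at 0 in both other lines. GLI3, a mediator of hedgehog signaling in the limb, was at 9.20, 0.552 and 0.0267 FPKM. TWIST1, at 83.9 FPKM, and PRRX1, at 389 FPKM, were instead the factors of SK-N-SH, and PRRX1 was at 11.1 FPKM in U-2 OS. These 2 genes were picked after their values were seen.

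Genes of the osteoblast lineage were a mixture of higher, lower and undetected members. Of 29 osteoblast genes, 15 entered, 8 of them above the mean of both lines and 3 below, with a median of 1.74 (0.95 with 1 FPKM added). RUNX2 was at 7.30 FPKM in U-2 OS, with 3.90 FPKM in SK-N-SH and 9.13 FPKM in K562, so the U-2 OS level lay between those of the other lines. ENPP1, which makes the mineralization inhibitor pyrophosphate, was at 7.44 FPKM in U-2 OS and listed at 0 elsewhere. BMP2, a bone-inducing ligand, was at 16.2, 0.783 and 0 FPKM. TNFRSF11B (osteoprotegerin), which blocks osteoclast formation, was at 35.4, 10.3 and 0 FPKM. SPP1 (osteopontin) was at 1.42 FPKM. CDH11 (osteoblast cadherin) was at 2.97 FPKM in U-2 OS against 111 FPKM in SK-N-SH, and DLX6 was listed at 0 in U-2 OS.

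Chondrocyte genes had the highest median of all lists, 3.69 (1.92 with 1 FPKM added). Of 18 genes listed, 9 entered, with 7 above the mean of both lines and none below. In U-2 OS 7 of the 9 were at 1 FPKM or more, in SK-N-SH 4 and in K562 2. Genes that entered through U-2 OS alone raise this median by the rule of entry. HAPLN1, which links proteoglycans to hyaluronan in cartilage, was at 25.2, 0.473 and 0 FPKM. The secreted protein CYTL1 was at 27.3, 3.14 and 0 FPKM, and COL9A2 was at 2.1, 0.0732 and 0.0813 FPKM. SOX9, the master regulator of chondrocytes, was at 29.6 FPKM in U-2 OS against 18.8 FPKM in SK-N-SH, a difference of 0.74, which is under 2-fold. The defining cartilage products were low, with COL2A1 at 0.350 FPKM and ACAN at 0.0982 FPKM in U-2 OS, and neither entered.

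Most matrix genes were above K562, and against SK-N-SH they were divided. Of 12 collagen genes, 11 were above the mean of both lines and 6 were above each line, while 4 were 2-fold or more below SK-N-SH. COL12A1, a collagen that joins fibrils, was at 27.8, 0.0338 and 0 FPKM. COL3A1 was at 451 FPKM in U-2 OS, with 971 FPKM in SK-N-SH and 0.0404 FPKM in K562, and COL1A1, the main collagen of bone, was at 28.7, 441 and 0.224 FPKM. Both were therefore lower in U-2 OS than in SK-N-SH, COL1A1 with a difference of -3.85. Of 28 other matrix genes, 25 were 2-fold or more above K562, and 18 were 2-fold or more below SK-N-SH, where 39.4% and 19.4% of all genes were. The exceptions were 3 genes above both lines: the elastic fiber gene FBN2 (42.2, 6.76 and 0 FPKM), the crosslinking enzyme LOX (72.6, 24.9 and 0 FPKM) and its relative LOXL1 (4.61, 1.74 and 0.198 FPKM). None of the 3 was above both lines among the PcTF-transfected libraries, where LOX had a difference of -1.42 from SK-N-SH. POSTN, a matrix protein of periosteum, was at 120 FPKM in U-2 OS against 457 FPKM in SK-N-SH and was listed at 0 in K562. VCAN was at 9.55, 342 and 0.0462 FPKM, and LUM was at 4.39, 123 and 0 FPKM.

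Genes of the TGF-beta and BMP pathway were mostly above the mean of both lines. Of 42 pathway genes, 30 were above the mean of both lines and 2 below, with a median of 2.25 (1.26 with 1 FPKM added and 2.05 after adjustment for transcript length), and 12 were above each line. TGFB2, a ligand, was at 109 FPKM in U-2 OS, with 4.28 FPKM in SK-N-SH and 0 in K562. BMP6 was at 4.44, 0.139 and 0 FPKM, so that BMP2, BMP4, BMP5 and BMP6 were all highest in U-2 OS. Other ligands were not: TGFB1 was at 3.28, 5.69 and 7.17 FPKM and INHBA, an activin subunit, at 72.3, 140 and 0 FPKM. BMP antagonists were present beside them, with NOG at 7.03, 0.798 and 0 FPKM and SOSTDC1 at 145, 5.31 and 22.7 FPKM. SOSTDC1 did not hold outside the mock libraries, with 7.00 FPKM in U-2 OS cells transfected with PcTF and a listing at 0 in U2OS-dTF cells. GREM1, another antagonist, was at 0.989 FPKM in U-2 OS against 49.0 FPKM in SK-N-SH. The target genes ID1 (53.5, 3.90 and 35.5 FPKM), ID3 (35.4, 2.42 and 5.78 FPKM) and ID4 (3.85, 0.262 and 0 FPKM) were also highest in U-2 OS, ID1 by less than 2-fold against K562, whereas ID2 was at 10.8, 14.1 and 0.368 FPKM. Among the receptors, BMPR1A was at 18.2, 14.8 and 1.13 FPKM and TGFBR2 at 19.7, 42.3 and 0.241 FPKM, both well above K562, while TGFBR3 was at 1.91, 0 and 4.94 FPKM. GDF15, a distant member induced by stress, was the only gene of the list below both lines, at 1.03, 7.15 and 115 FPKM.

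WNT pathway genes and the Hippo pathway were set off mainly from K562. Of 28 WNT genes, 20 were above the mean of both lines and 2 below (median 1.49), and 7 were above each line. The receptor FZD6 was at 59.9, 35.7 and 0 FPKM and LGR5, a receptor for R-spondins, was at 57.2, 59.8 and 0 FPKM, so both were shared with SK-N-SH. FZD10 (1.93 FPKM) and the target gene WISP1 (1.88 FPKM) were listed at 0 in both other lines. The antagonists DKK1 and DKK2 were high in SK-N-SH, at 83.5 and 184 FPKM, and were at 0.639 and 1.25 FPKM in U-2 OS.

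Of 33 Hippo genes, 22 were above the mean of both lines, 2 were below it and 10 were above each line, with a median of 1.66. The coactivators YAP1 (26.4, 19.1 and 0 FPKM) and WWTR1, also called TAZ (26.4, 38.3 and 0 FPKM), were within 2-fold of SK-N-SH and listed at 0 in K562. Of the whole list, 12 genes were 2-fold or more above SK-N-SH and 2, IGFBP3 and GADD45A, were below it. CTGF was at 174, 71.1 and 0 FPKM, CYR61 at 147, 30.7 and 0.715 FPKM and ANKRD1 at 35.0, 4.35 and 0 FPKM. VGLL3, a TEAD cofactor, was at 7.75 FPKM and listed at 0 in both other lines. The Hippo kinases LATS1 (22.8, 22 and 22.5 FPKM) and STK3 (24.1, 17.8 and 7.89 FPKM) were closer to level.

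Adhesion receptors and receptor tyrosine kinases gave a similar picture. Of 27 integrin genes and partners, 15 were above the mean of both lines and 4 below (median 2.00), yet the median against SK-N-SH alone was -0.25. ITGB8, which activates latent TGF-beta, was at 19.3, 2.29 and 0 FPKM. The collagen receptor ITGA2 (51.7, 81.3 and 0 FPKM) and the laminin receptors ITGA3 (21.1, 17.0 and 0.0456 FPKM) and ITGA6 (28.7, 38.4 and 0.0390 FPKM) were shared with SK-N-SH. Of 21 cadherin and adhesion genes, 11 were above the mean and 3 below (median 1.03). The cadherins CDH12 (13.7, 0 and 0.258 FPKM) and CDH8 (3.15 FPKM, listed at 0 elsewhere) were those of U-2 OS, and N-cadherin, CDH2, was at 98.3 FPKM in U-2 OS against 569 FPKM in SK-N-SH. Of 29 receptor tyrosine kinases, 18 were above the mean and 4 below (median 1.76). FGFR2, a receptor that acts in osteoblasts, was at 16.2, 0.0551 and 0 FPKM, and EPHA3 was at 3.43 FPKM and listed at 0 elsewhere. AXL was at 42.2, 15.6 and 0.0947 FPKM. PDGFRA was at 2.54 FPKM in U-2 OS against 77.9 FPKM in SK-N-SH.

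Of 30 proteases and inhibitors, 17 were above the mean of both lines and 3 below (median 1.33), but the median against SK-N-SH was -0.37. ADAMTS12 was at 4.74, 0.445 and 0 FPKM, and MMP7 (1.57 FPKM) and MMP10 (1.18 FPKM) were listed at 0 elsewhere. MMP16 was at 24.3, 32.6 and 0 FPKM, and MMP2, the gelatinase of fibroblasts, was at 15.7, 196 and 0.538 FPKM. The urokinase gene PLAU was below both lines, at 1.41, 14.7 and 9.24 FPKM.

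Genes of nucleic acid sensing and interferon response were high in mock U-2 OS, which received transfection reagent and no plasmid. Of 32 that entered, 17 were above the mean of both lines and 3 below, with a median of 1.48 (1.04 with 1 FPKM added), and 13 were above each line. Over all genes these shares were 30.6%, 23.4% and 13.5%. IFIH1 (MDA5), a sensor of double-stranded RNA, was at 49.9, 4.72 and 2.19 FPKM, and DDX58 (RIG-I) was at 56.7, 7.86 and 0.891 FPKM. MB21D1 (cGAS), the sensor of cytosolic DNA, was at 8.58 FPKM and listed at 0 elsewhere. Its downstream adaptor TMEM173 (STING) was lower in U-2 OS than in both lines, at 6.13, 17.0 and 16.5 FPKM. Among interferon-stimulated genes, IFI44 was at 74.2, 5.69 and 0 FPKM, OAS2 at 12.8, 0.158 and 0 FPKM, and IFI44L at 15.7, 0.746 and 0 FPKM. Some were highest in K562, among them ISG15 at 4.87, 0.833 and 46.7 FPKM and BST2 at 7.24, 0.262 and 14.8 FPKM.

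These levels differed widely between U-2 OS libraries. OAS2 was at 12.8 FPKM in the mock library, 286 FPKM in the PcTF-transfected library and 0 in U2OS-dTF cells, and IFI44 was at 74.2, 236 and 0.566 FPKM. With U2OS-dTF in place of mock U-2 OS, the list median against both mock lines was 0.0077. Against the PcTF-transfected SK-N-SH and K562 libraries, where OAS2 was at 18.1 and 0.121 FPKM, it was -0.91. Transfection reagent was used for the first 2 libraries, and its part in the result was not tested.

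Cytokine genes likewise included members above both lines. Of 27, 15 were above the mean, 5 below it and 11 above each line, with a median of 1.61. The chemokines CCL5 (14.2, 0.563 and 0 FPKM) and CXCL10 (8.49, 0.190 and 0 FPKM) are themselves interferon targets. IL18, a cytokine processed by inflammasomes, was at 91.7, 0.206 and 29.1 FPKM, and the decoy receptor IL13RA2 at 45.9, 19.1 and 0 FPKM. CCL2 was at 4.52 FPKM in U-2 OS against 120 FPKM in SK-N-SH, and IL6 was listed at 0 in U-2 OS. B2M, the light chain of class I molecules, was at 287, 99.0 and 120 FPKM, and the peptide-trimming enzyme ERAP1 at 35.0, 12.3 and 11.6 FPKM. Among 7 class I genes that entered, 2 were above the mean of both lines, against 30.6% of all genes, and 1 was below (median 0.64). Those 2 were B2M and ERAP1, and among the PcTF-transfected libraries no gene of the list was above each line.

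Genes of DNA replication and mitosis were higher in U-2 OS mainly against SK-N-SH. Of 36, 26 were 2-fold or more above SK-N-SH and none below, where 21.4% and 19.4% of all genes were, and 12 were above each line. Among the PcTF-transfected libraries 4 were above each line. NDC80, a kinetochore subunit, was at 217, 18.5 and 36.9 FPKM, CENPE, a mitotic motor, at 148, 40.9 and 23 FPKM, and UBE2C at 32.2, 16.3 and 2.88 FPKM. TYMS (thymidylate synthase) was at 509, 77.8 and 178 FPKM. The median against K562 was 0.07, with MCM7 (9.07, 14.6 and 56.4 FPKM) and CDC45 (11.4, 4.06 and 141 FPKM) highest there. NDC80 and TYMS lie close together on chromosome 18, in a run of neighboring genes described below.

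Among 42 cell cycle inhibitors and tumor suppressors, 14 were above the mean of both lines and 4 below (median 0.63), against 30.6% and 23.4% of all genes. Above each line there were 5, and 2 among the PcTF-transfected libraries. Cyclin D2, CCND2, was at 189 FPKM in U-2 OS, with 0 in SK-N-SH and 51.2 FPKM in K562. CDKN2A, which encodes p16 and ARF and belongs to the polycomb panel, was listed at 0 in U-2 OS and K562 and was at 3.25 FPKM in SK-N-SH. Its neighbors on chromosome 9 were not at 0 in U-2 OS: CDKN2B was at 9.85, 3.42 and 0 FPKM and MTAP at 35.6, 8.16 and 0 FPKM, so that in K562 all 3 genes were listed at 0. RB1 was at 59.5, 69.4 and 10.7 FPKM. RASSF1 was below both lines, at 0.422, 1.98 and 9.10 FPKM.

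U-2 OS is known to lengthen telomeres by recombination, without telomerase. Of 24 telomere maintenance genes, 2 were above the mean and 8 below, where 30.6% and 23.4% of all genes were, with a median of -0.54. The median was -0.10 against SK-N-SH alone and -0.19 among the PcTF-transfected libraries, where 1 gene was below each line in place of 4. TERT, the catalytic subunit of telomerase, was listed at 0 in U-2 OS and K562 and was at 0.0531 FPKM in SK-N-SH, and TERC, its RNA, was listed at 0 in U-2 OS. Partners of TERC were low, with NOP10 at 6.18, 40.1 and 494 FPKM and GAR1 at 5.09, 15.3 and 160 FPKM. ATRX, a chromatin remodeler, was at 44.3, 125 and 5.34 FPKM. RTEL1 was at 0.0134, 0.526 and 1.01 FPKM. NOP10 and GAR1 are short transcripts, and the list median was -0.37 after adjustment for transcript length.

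Genes of glycolysis and hypoxia were mixed. Of 29, 12 were above the mean, 4 below and 9 above each line (median 0.46, 0.75 after adjustment for length). Over all genes these shares were 30.6%, 23.4% and 13.5%. LDHA was at 2161, 743 and 386 FPKM. CA9, a hypoxia marker, was at 4.25, 0.142 and 0 FPKM, NDRG1 at 12.1, 1.54 and 0.668 FPKM and the glucose transporter SLC2A3 at 24.1, 2.27 and 7.32 FPKM. PFKP was below both lines, at 5.59, 22 and 28.0 FPKM. In the PcTF-transfected libraries 3 of the 29 were above each line, so this pattern was narrower there.

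Among growth factor and imprinted genes, 11 of 27 were above the mean of both lines and 9 below (median 0.05). Over all genes the shares were 30.6% and 23.4%. HMGA2, a chromatin protein of mesenchymal tumors, was at 590, 165 and 0 FPKM, the largest level of the list after IGFBP7. PEG3, an imprinted zinc finger gene, was at 34.6, 6.93 and 0 FPKM. IGF2BP3 was below both lines, at 7.87, 49.5 and 41.1 FPKM. Of 32 contractile and actin genes, 13 were above the mean and 5 below (median 0.36), beside the same shares of all genes. CNN3 (249, 394 and 0 FPKM) and CAV1 (54.1, 295 and 0 FPKM) were listed at 0 in mock K562 and at 1.23 and 0.604 FPKM in PcTF-transfected K562, MYL9 was at 9.07, 0 and 6.94 FPKM, and ZYX, a focal adhesion protein, was below both lines at 3.41, 41.8 and 22.3 FPKM.

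Polycomb genes themselves were called at about the share of all genes above the mean (30.6%). Of 30 genes of polycomb complexes and H3K27 demethylases, 9 were above the mean of both lines and 4 below, with a median of 0.26. EZH2, the methyltransferase that writes H3K27me3, was lowest in U-2 OS, at 7.80, 19.4 and 75.5 FPKM, and PHF19, a PRC2 cofactor, was at 4.55, 3.16 and 127 FPKM. EED (6.57, 3.94 and 8.98 FPKM) and SUZ12 (18.3, 19.8 and 15.0 FPKM) were within 2-fold of both lines. AEBP2 was at 19.1, 14.9 and 1.44 FPKM. BMI1, a PRC1 subunit, was at 17.0, 2.11 and 0.000217 FPKM, though it shares exons with a read-through gene and this division of reads is uncertain. CBX7 was at 1.36, 0.154 and 0.909 FPKM and CBX8, the protein on which PcTF is based, at 0.610, 0.287 and 1.59 FPKM.

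The polycomb panel is the set of target genes on which the study measured PcTF, picked there from earlier work on polycomb silencing. Of 12 panel genes that entered, 7 were above the mean and 2 below (median 1.61, 0.86 with 1 FPKM added). HOXA6 was at 2.03 FPKM and IRF8 at 2.25, 0 and 0.0869 FPKM. CADM1, an adhesion molecule, was at 28.9, 26.8 and 0 FPKM and CLU at 48.1, 22.1 and 0.322 FPKM. WT1 was at 2.39, 0.0849 and 38.1 FPKM, and RUNX3 at 0.151, 0 and 2.00 FPKM. In mock U-2 OS, without PcTF, panel genes therefore ranged from listed at 0 (HOXB4 and CDKN2A) to 48.1 FPKM.

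Genes of the other lines' tissues were low in U-2 OS. Of 35 neuroblastoma and sympathetic neuron genes, 31 were 2-fold or more below SK-N-SH, and of 36 erythroid and haematopoietic genes, 32 were 2-fold or more below K562, where 19.4% and 29.3% of all genes were. DDC, an enzyme of catecholamine synthesis, was at 43.7 FPKM in SK-N-SH and listed at 0 in the other lines. Some neuronal genes were present: NEFL was at 21.6, 32.9 and 0 FPKM, SNAP25 at 21.4, 22.4 and 0.115 FPKM, and L1CAM, an adhesion molecule of neurons, at 13.4, 2.89 and 0 FPKM was the only gene of the list above both lines. HEMGN (179 FPKM in K562) and HBG1 (1567 FPKM in K562) were listed at 0 in U-2 OS, and ANK1 was at 0.0772, 2.48 and 43.8 FPKM. HBE1, an embryonic globin, was at 19.1, 2.51 and 2694 FPKM. The epithelial genes that entered numbered 9, of which 3 were above the mean and 3 below (median 0.44), against 30.6% and 23.4% of all genes. MUC1 was listed at 0 in U-2 OS and was at 8.78 FPKM in K562, KRT19 was listed at 0 in both adherent lines, and the junction genes OCLN (2.66, 0.897 and 0 FPKM) and CLDN4 (1.01, 0.119 and 0 FPKM) were highest in U-2 OS.

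Cancer-testis genes are normally silent outside the germline. Of 21 that entered, 5 were above the mean of both lines and 9 below (median -0.46), where 30.6% and 23.4% of all genes were. Above each line there were 2 and below each 2, against 13.5% and 8.05% of all genes. MAGEA4 was at 117, 0.127 and 0.991 FPKM and the helicase DDX43 at 14, 0 and 0.0857 FPKM. MAGEB2 was at 20.4, 0 and 32.0 FPKM and MAGEA1 at 31.6, 0.511 and 30.8 FPKM, both shared with K562. PAGE5, at 280 FPKM, was a gene of K562 alone, and MAGEA3 was at 0.135, 5.06 and 7.44 FPKM. MAGE genes are near-identical to each other, and the division of reads among them is uncertain. Of 18 regulatory non-coding RNAs, 6 were above the mean and 5 below (median -0.16), near the 30.6% and 23.4% of all genes. HOTAIRM1, a transcript of the HOXA cluster, was at 9.66, 0 and 0.374 FPKM, LINC00511 was at 2.09 FPKM and listed at 0 elsewhere, and SNHG5 was at 10.1, 28.6 and 543 FPKM.

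Positions along the chromosomes, which the grouping did not use, gave runs of neighboring genes that lay on the same side of both lines. The 13806 genes were cut into 539 runs of 25 neighbors, and in 18 runs the median difference was 1 or more against both lines, while in 6 it was -1 or less. Of these, 10 and 4 were also past 1 or -1 among the PcTF-transfected libraries. The highest lay at chr11:96085929-105892954, with medians of 2.80 against SK-N-SH and 3.92 against K562, and 1.33 and 3.94 among the PcTF-transfected libraries. It holds YAP1 and the apoptosis inhibitors BIRC2 (63.3, 37.0 and 5.97 FPKM) and BIRC3 (201, 3.52 and 0.566 FPKM), together with CASP4 (33.6, 2.24 and 0 FPKM) and MMP7. The run at the end of chromosome 18 (chr18:158483-6414910) had medians of 2.36 and 2.24, and 2.29 and 2.23 in the PcTF-transfected libraries, with 18 of its 25 genes above both lines. TYMS and NDC80 belong to it, as do the kinase YES1 (194, 16.2 and 25.5 FPKM), the export factor THOC1 (92.7, 19.1 and 32.3 FPKM) and the chromatin protein SMCHD1 (184, 41.4 and 11.8 FPKM). The next 2 runs on chromosome 18 were also past 1, so the stretch reached position 21977833.

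On chromosome 8, 3 adjoining runs from 117778742 to 144359101 had medians of 1.48 to 1.87 against SK-N-SH and 2.36 to 2.76 against K562. They hold the cohesin subunit RAD21 (315, 91.2 and 73.3 FPKM), ATAD2 (208, 22.1 and 39.6 FPKM), EXT1, an enzyme of heparan sulfate synthesis (71.7, 19.8 and 1.55 FPKM), TNFRSF11B and the focal adhesion kinase PTK2. MYC, which lies in the same stretch, was at 13.6, 7.21 and 209 FPKM, highest in K562. A run at chr12:8071824-10752434 (medians 2.35 and 2.52) holds SLC2A3 and lectin-like receptors such as CLEC2B (12.4, 0 and 2.33 FPKM).

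Runs on the low side were fewer. The lowest, at chr7:143078360-150071133, had medians of -2.22 and -2.51, with 17 of 25 genes below both lines, and its neighbor at chr7:150076406-152373250 had medians of -1.68 and -2.69. EZH2 and ZYX lie in the first of these, as does the ubiquitin ligase scaffold CUL1 (14.1, 62.0 and 65.3 FPKM). A run at chr14:102786096-105461855 had medians of -1.58 and -1.88 and holds AKT1 (1.12, 4.19 and 3.49 FPKM). By whole chromosome, the median difference from the mean of both lines was highest on chromosome 18 (0.99) and chromosome 8 (0.73) and lowest on chromosome 19 (-0.63). No DNA copy number was measured in these samples, and the part of gene dosage in these runs was not tested. The run of protocadherin genes on chromosome 5 (medians 1.45 and 5.68) is made of overlapping genes that share exons, so its members are not independent.

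**Figure D4:**
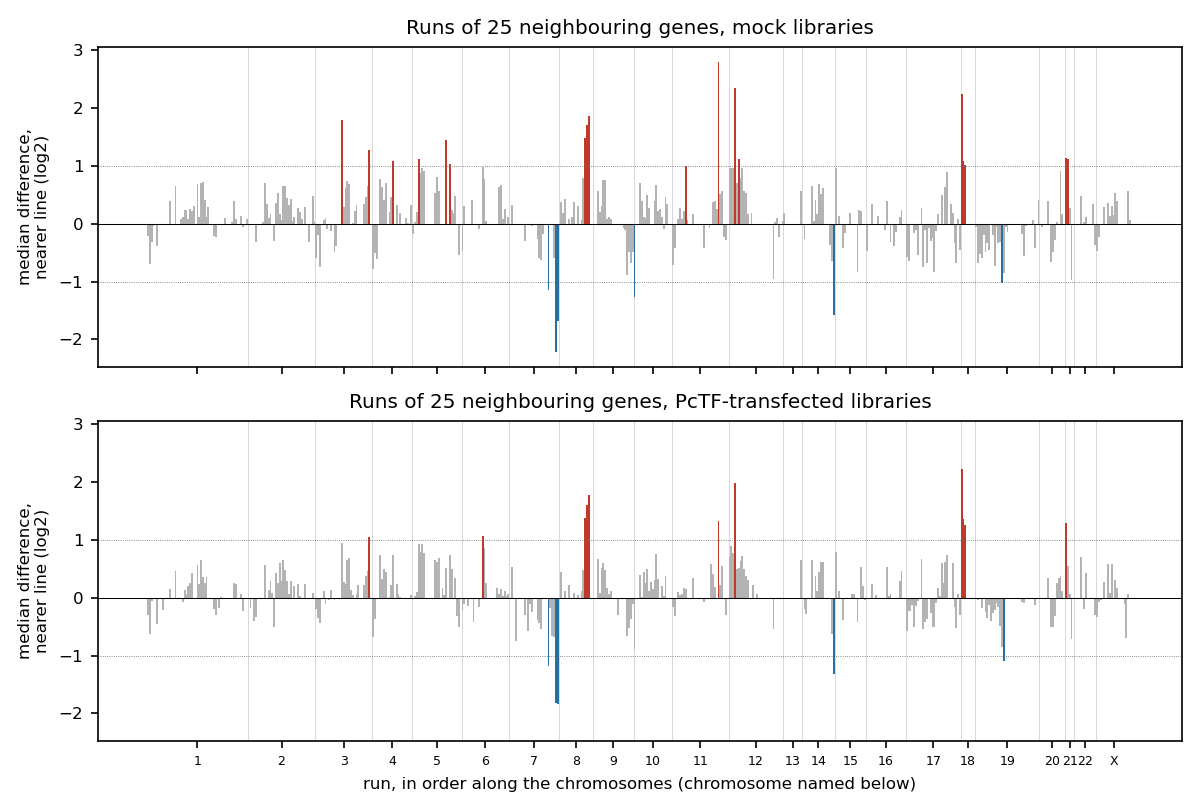
Each bar is 1 of 539 runs of 25 neighboring genes in chromosome order, and its height is the median centred log2 difference between U-2 OS and the nearer of the 2 other lines (0 where the medians have opposite signs), for mock libraries (top) and PcTF-transfected libraries (bottom). Red bars are at 1 or more and blue bars at -1 or less: the runs on chromosomes 8, 11, 12 and 18 and the pair on chromosome 7 stand out in both panels.

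The series holds other U-2 OS libraries, and the genes above were followed in them. The PcTF-transfected libraries give a separate library of each line, though of treated cells. Of the 1867 genes above both lines in the mock set, 1119 (59.9%) were also above both in the PcTF-transfected set, which is 64.1% of the 1747 genes called there (12.3% of 14247). Of the 1111 genes below both, 485 (43.7%) were also below both, or 47.0% of the 1032 called there (7.24%). The Spearman correlation across genes of mock U-2 OS was 0.91 with PcTF-transfected U-2 OS and 0.71 with U2OS-dTF, a value close to that with SK-N-SH. U2OS-dTF cells carry a stable transgene and were treated with 1 µg/mL doxycycline for 96 h by the title and treatment protocol, although another label of this sample reads untreated (deactivated protein), and clone, treatment and table cannot be told apart.

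Some genes were steady across the 3 U-2 OS libraries and others were not. TYMS was at 509, 497 and 591 FPKM in mock, PcTF-transfected and U2OS-dTF cells, CCND2 at 189, 131 and 117 FPKM and SPARC, a matrix protein of bone, at 271, 171 and 234 FPKM. MAGEA4 was at 117, 218 and 518 FPKM and BMP4 at 27.9, 10.2 and 99.5 FPKM, high in all 3. COL3A1 went from 451 FPKM in mock cells to 28.6 FPKM in PcTF-transfected cells and 0.196 FPKM in U2OS-dTF cells, POSTN from 120 to 9.00 FPKM and to 0, and COL11A1 from 108 to 14.9 and 5.04 FPKM. Among HOX genes, HOXA10 (10.9, 6.66 and 4.41 FPKM) and HOXC10 (7.00, 7.58 and 16.4 FPKM) were present in all 3 libraries, whereas HOXA13 was at 18.7, 2.83 and 0.149 FPKM. HMGA2 was at 590, 480 and 32.4 FPKM. COL3A1, POSTN, HOXA13 and OAS2, all high in the mock library, were each under 1 FPKM in U2OS-dTF cells.

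**Figure D5:**
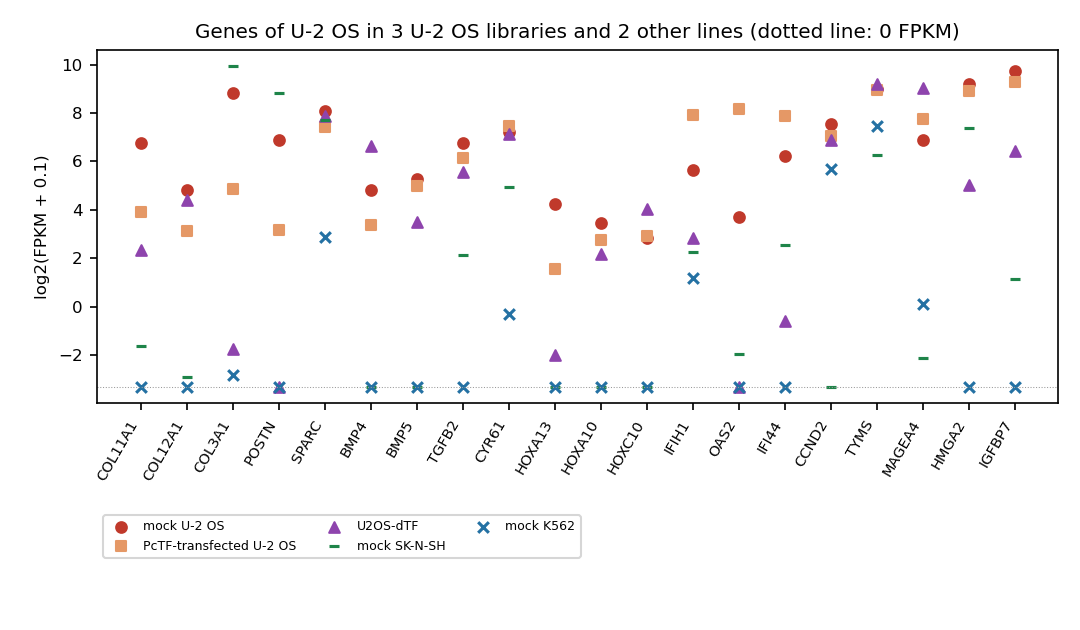
Levels of 20 genes as log2(FPKM + 0.1) in mock (red circles), PcTF-transfected (orange squares) and U2OS-dTF (purple triangles) cells, beside mock SK-N-SH (green dashes) and mock K562 (blue crosses), with a dotted line at 0 FPKM. CCND2, TYMS, CYR61 and SPARC lie close together in the 3 U-2 OS libraries, whereas COL3A1, POSTN, HOXA13 and OAS2 spread over most of the axis.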

How the data were processed

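The authors amplified total RNA to cDNA and sequenced single-end reads. According to the submitters' processing notes, tools were FastQC, TopHat2 2.1.0, Bowtie2, Cufflinks, Cuffdiff, HTSeq, DESeq and DESeq2, with hg19. The deposited values are FPKM per gene, computed by the authors with Cuffdiff for each line separately. Of 8 value columns, 7 hold 1 library each, and 1, a mean, was not used. The authors' fold changes, test statistics, p-values and significance calls were not used, and 8 genes without a Cuffdiff estimate in 1 or more columns were left out.

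Depth was found from the smallest FPKM step among 713 single-exon genes, assuming fragments of 200 bp (SD 80 bp). Values of these genes were whole reads within 3% for 96.6% to 99.0% of low values per library. The depth was chosen by this share, so the share is not a separate check of it. Centring removed -0.12 from the difference against both lines, -0.09 against SK-N-SH and -0.16 against K562. Transcript lengths were GENCODE 44 canonical transcripts lifted to GRCh37, for 93.7% of genes. Python 3.11.15, pandas 2.3.3, numpy 2.4.6 and matplotlib 3.10.9 were used. The calculation was tested on simulated data.

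The members and the 31 gene lists were chosen with earlier results of these data known. Named genes are the 15 farthest above and the 15 farthest below the nearer line (10 FPKM or more on the higher side, loci of 300 bp or more), up to 4 members per list with the largest difference, and HOX, osteoblast, polycomb panel and marker genes. The other genes in the text were picked after their values were seen. A gene symbol that the files place on chromosome Y, and 3 samples without a column of their own, are not analysed here. Some genes that the naming rule gives, and 1 list, are not reported here.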

Additional observations from a re-analysis of the deposited data

How the results depend on the processing

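With 1 FPKM added in place of 0.1, 581 genes were 2-fold or more below both lines (1111 as reported) and 11 of the 31 lists had a median of 1 or more or -1 or less (18 as reported). Centring on the reference genes moved the median of all genes from 0.15 to 0.88, and gave 6462 higher genes, 1749 lower genes and 628 below both lines, so the split of higher against lower depends on the centring. Without a filter on low values 3087 genes were above both lines, and with a filter of 5 FPKM 1068 were, with 2741 higher than the mean. Against SK-N-SH alone 2948 genes were above and 2679 below, and 8 lists were past 1 or -1. The medians there were -2.37 for other matrix genes, -0.16 for limb transcription factors, 0.089 for erythroid genes, -0.25 for integrins, -0.41 for cadherins and -0.37 for proteases, each of the opposite sign to the median against both lines. Against K562 alone 5440 genes were above and 4043 below, and the neuroblastoma list had a median of 0.79. With U2OS-dTF in place of mock U-2 OS, 1811 genes were below both lines and other matrix genes had a median of -0.062. Another 10 of the 31 list medians crossed 1 in size. Those that fell under 1 included integrins (0.68), receptor tyrosine kinases (0.62), WNT genes (0.39), cytokines (0.50), proteases (0.90) and the polycomb panel (0.38). Medians of epithelial (1.7) and contractile genes (1.2) rose past 1. Of 119 named genes called in the mock set that entered, 82 were still called. The difference of single genes from the nearer line then changed sign for SOSTDC1 (-5.74), ERAP1 (-0.96), RASSF1 (1.03), MUC1 (1.12), GADD45A (0.36) and THOC1 (-0.20). Set against the PcTF-transfected libraries, U2OS-dTF had 2009 genes below both lines, and medians of -0.69 for cytokines and -0.91 for interferon genes. Sign changes there were those of SOSTDC1 (-6.69), OAS2 (-0.75), CCL5 (-1.46), CXCL10 (-3.15), ERAP1 (-0.42), RASSF1 (0.48), GAR1 (0.43), LDHA (-0.17), ZYX (0.21), MUC1 (1.10), THOC1 (-0.22) and GADD45A (1.10). Among the PcTF-transfected libraries SOSTDC1 alone of the named genes changed sign (-0.60). Of 135 named genes called in the mock set that entered there, however, 112 were still called. List medians past 1 or -1 numbered 13 there, in place of 18. The setting of U2OS-dTF against the PcTF-transfected libraries, the adjustment for transcript length (1686 above and 918 below both lines) and the omission of small RNA symbols (1805 and 1100) were chosen after seeing the data. The cause of these changes was not tested. Counts stayed within 1.5 times with 0.01 FPKM added, no centring, quantile normalization, loci of 300 bp or more and the PcTF-transfected libraries. No paired analysis was possible because each line has 1 library per treatment, and for the same reason no replicate could be left out.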
